A study of Mus musculus with 24 samples.

Results

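Interferon-stimulated genes are described here through 9 genes, namely Irf7, Irf9, Isg15, Usp18, Ifit1, Ifit3, Oasl2, Rsad2 and Ifi44. They were chosen by name, and every gene probe that carries 1 of these names on the array was taken, which gave 13 probes out of 56605 gene probes. Each gene is shown by its probe of highest mean signal over all arrays, and the other probes of Irf7, Irf9, Rsad2 and Ifi44 served as a check. Of the 13 probes, 12 were tested, including all 9 shown, and the second probe of Ifi44, which was well above background on 7 of 24 arrays, was not.

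The arrays measured total RNA of nerve roots that leave or enter spinal cord segments L4 to L6 of C57BL/6 mice. The ventral root holds the efferent nerve fibres (EN), which are mainly axons of motor neurons, and the dorsal root holds the afferent nerve fibres (AN), which are mainly central axons of sensory neurons. There were 3 arrays for each root at birth (P0) and at 1, 3 and 5 weeks of age (1W, 3W and 5W), which makes 8 groups and 24 arrays. According to the methods of the study, 9 untreated mice of both sexes were used per stage, the fibres were pooled by root and stage, the arachnoid was peeled off before dissection, and each group came from 3 independent experiments, without a statement on which animals a replicate number holds. A root contains Schwann cells, fibroblasts, vessels and macrophages beside axons, so that in such bulk RNA a change in the number of cells of a type and a change in RNA per cell cannot be told apart.

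Interferons are secreted proteins by which cells signal the presence of viral or other foreign nucleic acid. Type I and type III interferons activate the kinases Jak1 and Tyk2 through their receptors, and the transcription factor Stat2 then joins Irf9 in a complex that binds interferon-stimulated response elements in promoters. Many of the genes switched on in this way act against viruses, others amplify or shut off the signal, and a low tonic level of the same genes is found in tissues without infection.

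The promoters of the members are shown first, and whether they bear on the array values described below was not tested. RefSeq promoter sequences of GRCm38.p6, from 250 bases before to 50 bases after a gene start, were given for 8 of the 9 genes and not for Usp18. The core of the interferon-stimulated response element was searched as GAAANNGAAA on both strands, and overlapping matches were counted separately. It was present in 3.443% of 32851 promoters of that length and in 4 of the 8 member genes, namely Isg15, Rsad2, Ifit3 and Ifit1. The longer form GAAANNGAAACT was present in 0.2709% of the promoters and in 2 members, Ifit3 and Ifit1. The windows below run 5′ to 3′ on the strand of the gene, and capitals mark matches to GAAANNGAAA or its reverse complement.
Isg15, chr4:156200860-156200911, minus strand: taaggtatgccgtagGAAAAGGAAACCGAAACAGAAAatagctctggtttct
Rsad2, chr12:26456548-26456587, minus strand: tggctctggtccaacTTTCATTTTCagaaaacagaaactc
Ifit3, chr19:34583358-34583431, plus strand: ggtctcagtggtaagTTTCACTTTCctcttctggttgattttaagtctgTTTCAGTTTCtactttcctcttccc
Ifit1, chr19:34640770-34640828, plus strand: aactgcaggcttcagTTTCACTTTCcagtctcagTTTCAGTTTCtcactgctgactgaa
Isg15 held 3 overlapping matches, from -78 to -57 relative to its start, Ifit3 and Ifit1 held 2 each and Rsad2 held 1. In Ifit1 the matches lay at -104 to -95 and at -85 to -76, and in Ifit3 they lay at -156 to -147 and at -122 to -113. No match lay in the windows given for Irf7, Irf9, Oasl2 and Ifi44. A match describes these letters only and no binding was measured.

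Values below are log2 values of the authors' quantile normalized table, in which all 24 arrays have a median of 6.32, and they compare arrays for 1 probe and not probes with each other. Median signals of 45.4 to 191 per array stood over a local background of 23 to 46, no spot was saturated, and a probe was well above background from log2 values between 3.71 and 5.87 upwards, depending on the array. The 24 arrays lay on 4 slides. Slide 1 held replicate 1 of P0 and of 1W, slide 2 held replicates 2 and 3 of P0, replicate 3 of 1W and replicate 2 of 5W, slide 3 held replicate 2 of 1W and replicate 1 of 5W, and slide 4 held the 3 replicates of 3W and replicate 3 of 5W. Both roots of a replicate number always shared a slide. Differences were tested with limma over 36409 probes, and a difference is called where the Benjamini-Hochberg adjusted p is below 0.05 and the fold change above 2.

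The regulators come first. Irf7 is the factor that carries most of the later production of type I interferon and is itself induced by interferon, and Irf9 is the DNA-binding partner of Stat2. The probe of Irf7 (A_55_P2744251) lies at chr7:148449104-148449163 of mm9. In EN, the log2 values of Irf7 for replicates 1, 2 and 3 were 10.67, 11.32 and 10.15 (P0), 9.70, 10.06 and 12.56 (1W), 12.07, 11.45 and 11.16 (3W), and 13.45, 11.28 and 11.29 (5W). In AN, they were 10.77, 11.36 and 10.64 (P0), 9.74, 9.99 and 12.20 (1W), 11.86, 11.43 and 11.30 (3W), and 13.28, 10.65 and 13.23 (5W). Replicate 3 of 1W stood above the other 1W arrays in both roots, and at 5W replicate 2 was the lowest array in both. In EN at 5W, replicate 3 (11.29) was nearly as low as replicate 2 (11.28), whereas the AN array of the same number was at 13.23. The second probe of Irf7 (A_51_P421876) gave 9.21, 7.13 and 8.91 for the same 3 EN arrays at 5W, so that the probes disagree on replicate 3, and neither spot carried an outlier mark.

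Irf9 varied less than the other members. Its probe (A_55_P2114938) lies at chr14:56228806-56228865. In EN, its log2 values were 10.24, 10.86 and 10.06 (P0), 10.55, 10.72 and 11.95 (1W), 11.55, 11.54 and 11.54 (3W), and 12.14, 11.61 and 12.41 (5W). In AN, they were 10.21, 11.03 and 10.28 (P0), 10.35, 10.49 and 11.78 (1W), 11.59, 11.54 and 11.40 (3W), and 12.37, 11.49 and 12.34 (5W). All arrays of 3W and 5W lay above all arrays of P0 in both roots, and the 3W arrays lay within 0.19 of each other in AN and within 0.02 in EN, while replicate 3 of 1W was again the highest of its group.

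Isg15 encodes a ubiquitin-like protein that is linked to other proteins after interferon exposure, and Usp18 encodes the protease that removes it and that also blocks signalling at the type I receptor. The probe of Isg15 (A_55_P2103698) lies at chr4:155573649-155573708 and that of Usp18 (A_55_P2114953) at chr6:121220874-121220933. The EN arrays gave log2 values of 11.76, 12.26 and 11.08 (P0), 10.83, 11.46 and 14.11 (1W), 12.71, 12.66 and 12.30 (3W), and 13.87, 12.59 and 14.61 (5W) for Isg15. The AN arrays gave 11.96, 12.28 and 11.30 (P0), 11.24, 11.49 and 14.00 (1W), 12.65, 12.58 and 12.26 (3W), and 13.84, 12.06 and 14.10 (5W). Replicate 3 of 1W reached 14.11 in EN and 14.00 in AN, which is within the range of the 5W arrays, while the other 1W arrays lay below the mean of P0.

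For Usp18, the log2 values were 6.81, 7.89 and 6.44 (P0), 7.66, 7.92 and 9.97 (1W), 9.07, 9.00 and 8.70 (3W), and 9.95, 8.55 and 10.75 (5W) in EN. The values were 6.54, 8.04 and 6.66 (P0), 7.27, 7.75 and 9.76 (1W), 9.10, 8.98 and 8.90 (3W), and 10.05, 7.99 and 10.52 (5W) in AN. The 3W arrays of Usp18 lay above every P0 array in both roots. At 5W this held in EN, whereas in AN replicate 2 (7.99) lay just below the highest P0 array (8.04).

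Ifit1 and Ifit3 encode proteins with tetratricopeptide repeats that bind foreign RNA and act in a complex. The probe of Ifit1 (A_55_P2911888) lies at chr19:34723827-34723886 and that of Ifit3 (A_51_P359570) at chr19:34663105-34663164. Ifit3 has a closely related neighbour, Ifit3b, and how far their probes cross-hybridize was not tested. Ifit1 had log2 values of 5.70, 6.93 and 5.52 (P0), 5.03, 5.90 and 9.02 (1W), 8.53, 8.15 and 7.72 (3W), and 8.77, 8.33 and 9.93 (5W) in EN. In AN it had 6.82, 7.24 and 6.47 (P0), 5.41, 5.95 and 8.63 (1W), 8.53, 8.26 and 8.28 (3W), and 9.17, 8.01 and 9.89 (5W). Ifit1 was not well above background on replicate 3 of EN P0 and was so on the other 23 arrays, and all 3W and 5W arrays lay above all P0 arrays in both roots.

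The log2 values of Ifit3 were 9.15, 9.80 and 9.15 (P0), 9.47, 9.94 and 11.50 (1W), 11.22, 11.00 and 10.69 (3W), and 11.88, 11.59 and 13.10 (5W) in EN. The AN values were 8.80, 9.90 and 9.61 (P0), 9.00, 9.45 and 10.93 (1W), 11.50, 11.05 and 11.24 (3W), and 12.52, 11.80 and 12.96 (5W). Ifit3 was the member with the clearest order of stages, since the arrays of 3W lay above those of P0, and those of 5W above those of 3W, without overlap in both roots.

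Oasl2 encodes a relative of the oligoadenylate synthetases, Rsad2 encodes viperin, an enzyme that makes a chain-terminating nucleotide, and Ifi44 encodes an interferon-induced protein of less settled function. Their probes lie at chr5:115362168-115362227 (Oasl2, A_51_P387123), chr12:27127859-27127918 (Rsad2, A_52_P670026) and chr3:151394035-151394094 (Ifi44, A_51_P487690). Log2 values of 8.21, 9.63 and 8.21 (P0), 8.37, 8.80 and 10.87 (1W), 10.34, 9.97 and 9.90 (3W), and 11.07, 10.36 and 11.50 (5W) were measured for Oasl2 in EN. The AN arrays were at 8.34, 10.09 and 8.88 (P0), 8.63, 8.85 and 10.79 (1W), 10.10, 9.73 and 10.47 (3W), and 11.29, 9.90 and 11.54 (5W). The 3W arrays of EN lay above all P0 arrays of EN, but in AN replicate 2 of P0 (10.09) overlapped with 3W and 5W.

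Rsad2 was at log2 values of 10.34, 9.03 and 8.45 (P0), 7.74, 8.31 and 11.11 (1W), 10.52, 10.63 and 10.14 (3W), and 10.27, 9.21 and 11.38 (5W) in EN. In AN it was at 10.51, 8.75 and 8.49 (P0), 7.42, 8.00 and 10.80 (1W), 9.65, 9.96 and 9.13 (3W), and 9.74, 8.19 and 10.66 (5W). Rsad2 was the only member for which replicate 1 was the highest array of P0, in both roots, and its highest group mean was at 3W rather than at 5W, although every pair of neighbouring stages overlapped.

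For Ifi44, EN gave log2 values of 6.81, 7.78 and 6.71 (P0), 6.37, 6.55 and 9.18 (1W), 8.29, 7.49 and 7.39 (3W), and 8.42, 7.44 and 8.31 (5W). AN gave 6.62, 8.52 and 7.77 (P0), 5.93, 6.35 and 8.80 (1W), 7.84, 7.39 and 7.53 (3W), and 8.21, 7.34 and 8.11 (5W). No stage of Ifi44 was separated from its neighbours in the order of group means in either root.

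**Figure D1:**
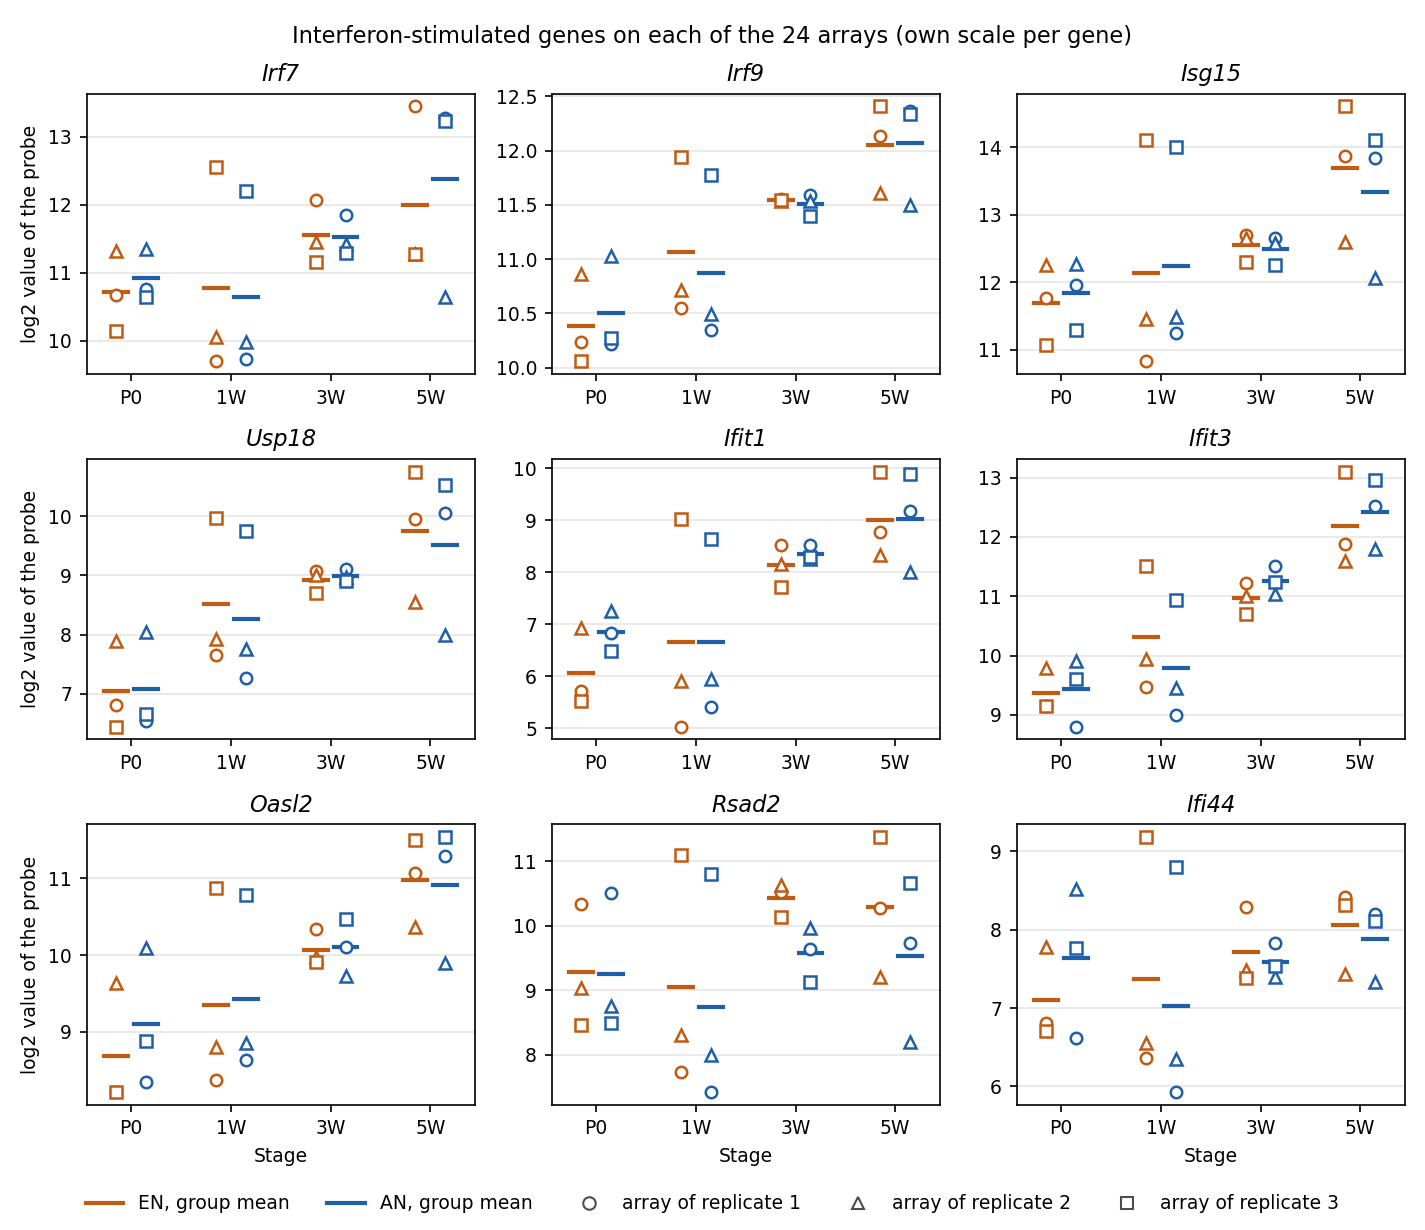
Log2 value of the shown probe of each member (vertical axis, own scale per gene) by stage (horizontal axis) on each of the 24 arrays, with EN in orange and AN in blue, bars at group means and a symbol for each replicate number; points that coincide cover each other. The square of replicate 3 stands above the other 1W arrays in all 9 panels, and the triangle of replicate 2 is the lowest at 5W in all 9, with the square of replicate 3 beside it for Irf7 in EN.

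The members differed widely between arrays of the same group, and these differences were shared by the genes and by both roots. Replicate 3 of 1W was the highest array of its group for 9 of 9 members in EN and for 9 of 9 in AN. Its gap to the next array was between 1.23 (Irf9) and 3.13 (Ifit1) in EN and between 1.28 (Irf9) and 2.81 (Rsad2) in AN, on the log2 scale. Replicate 1 of 1W was the lowest of its group for 9 of 9 members in both roots.

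At 5W, replicate 2 was the lowest array for 9 of 9 members in both roots. Its difference from the next array ranged from -2.58 to -0.72 in AN, with a median of -1.39, and in EN the median was -0.70. At P0, replicate 2 was the highest for 8 of 9 members in both roots, with Rsad2 as the exception. The 3W arrays, which all lay on slide 4, spread the least: the median deviation of the members from the mean of the other arrays was between -0.14 and 0.23 in AN and between -0.42 and 0.37 in EN. Slide 2 held both the high arrays of 1W and the low arrays of 5W.

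**Figure D2:**
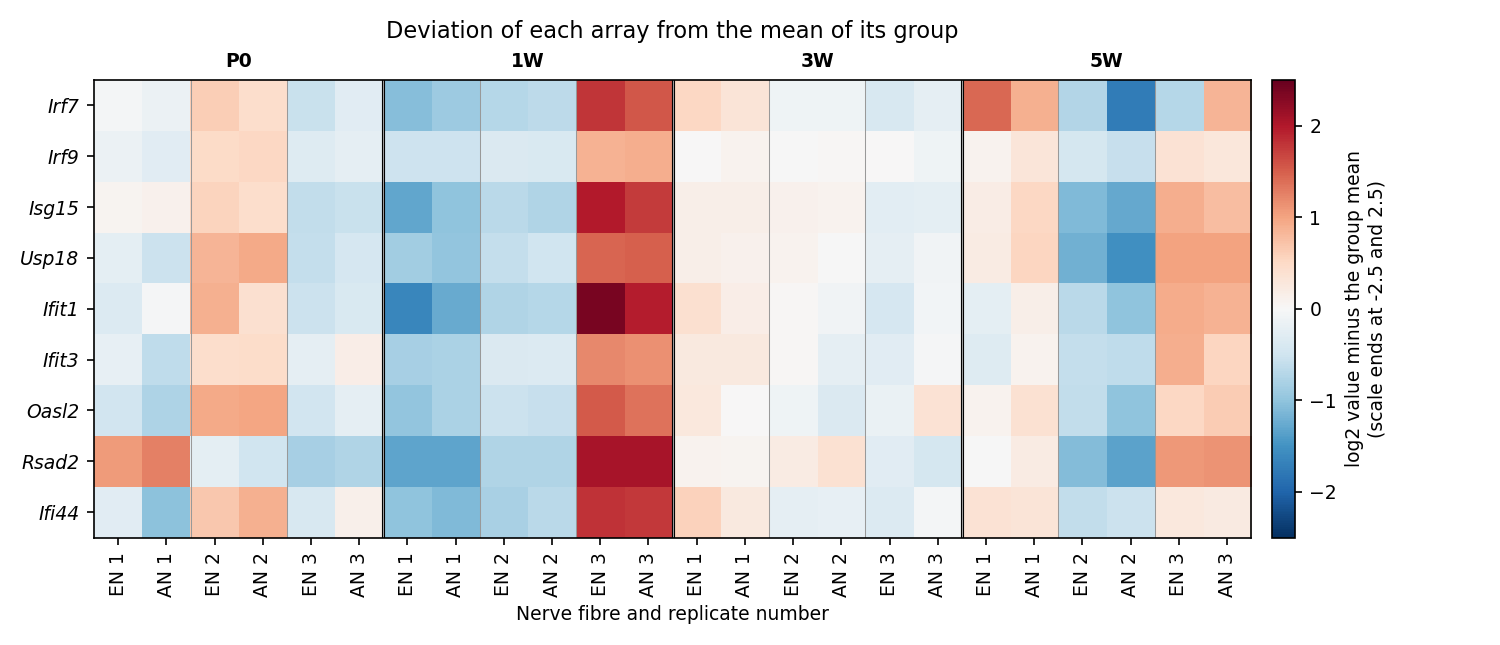
Log2 value minus the mean of its group (colour scale, red above and blue below the mean) for the 9 members (rows) on the 24 arrays (columns, ordered by stage, replicate number and root). The EN and AN columns of a number have like colours, with the darkest red at replicate 3 of 1W and blue for 9 of 9 members at replicate 2 of 5W.

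This spread was large against other probes. The SD between arrays of the same group, pooled over the 8 groups, was lowest for Irf9 (0.50) and highest for Rsad2 (1.21) on the log2 scale, against a median of 0.29 over all tested probes. Of the tested probes, 0.953% had a larger SD than Rsad2, 1.47% a larger SD than Ifit1, 2.25% than Isg15 and 19.8% than Irf9. The deviations of the AN and the EN array with the same number from their group means correlated with r between 0.77 (Irf7) and 0.99 (Rsad2) over 12 pairs, which share stage, slide and replicate number. Between members, the deviations correlated with r from 0.63 (Rsad2 and Ifi44) to 0.97 (Irf9 and Usp18) over the 24 arrays.

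The roots of a number differed less than the numbers did. The SD of the mean of both roots of a number exceeded the SD of their difference 6.39 times for Rsad2, 4.95 times for Isg15, 4.32 times for Usp18, 4.05 times for Irf9 and 1.40 times for Irf7, where the median of all tested probes was 0.95. Whether the shared deviation came with the animals, the experiment or the slide cannot be told apart at 1W and 5W, where each replicate number had its own slide. At P0, replicates 2 and 3 shared slide 2, and the mean deviation of the members from the group mean was 0.51 and -0.28 in AN and 0.58 and -0.51 in EN. All 3W arrays shared slide 4. The source of the deviation was not tested.

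**Figure D3:**
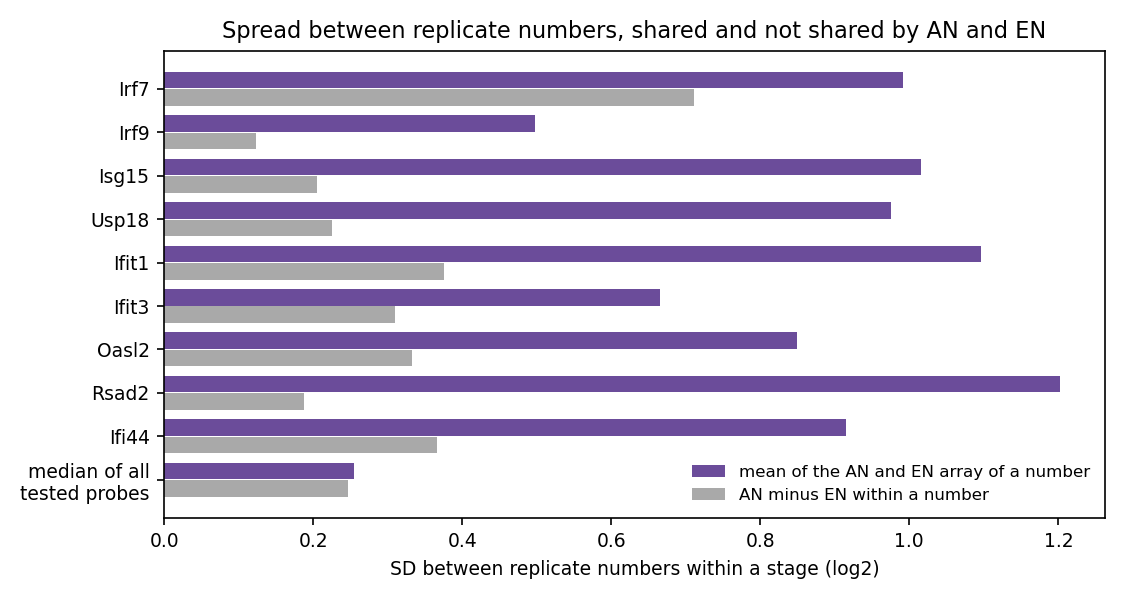
SD between replicate numbers within a stage (log2, horizontal axis) of the mean of the AN and EN array of a number (purple) and of AN minus EN within a number (grey), for the 9 members and as the median over all tested probes. The purple bar is the longer for 9 of 9 members, while both bars have nearly the same length for the median probe.

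The first comparison asks whether the members differ between afferent and efferent roots of the same stage. None of the 9 members was called between AN and EN at any stage, and none had an unadjusted p below 0.05 in limma without pairs. At P0, 0 of 9 members were called, with 0.327% of all tested probes called. The count was also 0 of 9 at 1W (2.79% of all), 3W (3.11%) and 5W (3.31%). Over the 9 members the lowest adjusted p was 1.00 for P0, then 0.793, 0.697 and 0.703 for the later stages.

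The intervals of the fit without pairs were wide, and they include the spread between replicate numbers that both roots shared. At 5W, the difference AN minus EN was 0.23 for Ifit3 (95% interval -0.87 to 1.34), -0.36 for Isg15 (-2.0 to 1.28) and 0.02 for Irf9 (-0.80 to 0.83), on the log2 scale. In that fit a 2-fold difference was not excluded for Ifit3 and Isg15. Within the pairs of 5W, AN minus EN ran from -0.14 to 0.64 for Ifit3 and from -0.53 to -0.03 for Isg15. Intervals of a paired fit are not given here. Rsad2 had the largest difference at 3W, at -0.85 (-2.78 to 1.08), and was at -0.76 (-2.69 to 1.18) at 5W. Within replicate numbers, EN was the higher root for Rsad2 in 3 of 3 pairs of each stage after P0, with AN minus EN between -1.02 and -0.31 over these 9 pairs. With the pair as a block, 0 of 9 members were called at each stage as well. That count could not have been higher, since the block leaves the differences unchanged and none reached 2-fold (lowest -0.85, highest 0.79 over all stages).

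The change of the AN-EN difference since P0 was tested as an interaction in the same fit without pairs. It was called for 0 of 9 members at 1W (0.0632% of all tested probes), 3W (0.525%) and 5W (0.931%). The lowest adjusted p was 1.00, 0.985 and 0.906, and none of the 9 had an unadjusted p below 0.05. That fit counts the spread shared by both roots as error, so these p values do not show that the difference stayed the same. The SD of AN minus EN within a number was lowest for Irf9 (0.12) and highest for Irf7 (0.71). The SD within groups of these genes was 0.50 and 1.05. Intervals and p values of a paired fit are not given here for this change.

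The next comparison sets each later stage against P0 in the same root. Members rose from P0 to 5W in both roots, led by Ifit3, Ifit1 and Usp18. None was called lower at any stage, but the share of all tested probes called lower is not given here. The shown probes of Irf7, Rsad2 and Ifi44 were not called at any stage. At 1W, 0 of 9 members were called in EN, where 6.25% of all tested probes were called higher, and 0 of 9 in AN, where 4.96% were. The largest change at 1W was that of Usp18, at 1.47 ± 0.75 (SE) in EN and 1.18 ± 0.75 in AN on the log2 scale, with adjusted p of 0.16 and 0.294 in limma, and none of the members had an unadjusted p below 0.05. Negative values at 1W were those of Rsad2 in EN (-0.22) and of Ifi44 (-0.61), Rsad2 (-0.51), Irf7 (-0.28) and Ifit1 (-0.18) in AN. Without replicate 3 of 1W in both roots, Ifi44 was called lower in AN, at -1.49 (adjusted p = 0.0361).

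At 3W, 4 of 9 members were called higher in EN, where 16.1% of all tested probes were. They were Ifit1 (4.23-fold), Usp18 (3.67-fold), Ifit3 (3.04-fold) and Irf9 (2.23-fold), with adjusted p between 0.015 and 0.0459. In AN, 3 of 9 were called higher, with 15% of all tested probes, namely Usp18 (3.77-fold), Ifit3 (3.54-fold) and Irf9 (2.01-fold), with adjusted p between 0.00719 and 0.0401. The 3 arrays of 3W lay above the 3 arrays of P0 for 6 of 9 members in EN (36.9% of all tested probes) and for 4 of 9 in AN (29.7%).

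Stage and slide cannot be told apart directly at 3W, and the slide block fits below rest on a link through 1W and 5W. All 3W arrays lay on slide 4 and all P0 arrays on slides 1 and 2, so that no slide gives a 3W difference against P0. With the slide as a fixed block, 0 of 9 members were called at 3W in either root, with Ifit3 at 0.37 in EN and 0.59 in AN and Usp18 at 0.05 and 0.09 on the log2 scale, and with the slide as a random block 0 of 9 were called as well, with Ifit3 at 1.04 and 1.26. The share of all tested probes called under these blocks is not set beside these counts, so a loss particular to the members cannot be read from them. Leaving out 1 array or 1 replicate number gave between 0 and 5 calls in EN and between 1 and 3 in AN. In EN, 1 member was called without P0 replicate 1, without P0 replicate 3 or without 3W replicate 1, and 2 were called without 3W replicate 2 or 3, while without P0 replicate 3 of both roots 0 were. In AN, Ifit3 was the only member called without P0 replicate 1 or 3 or without any 1 of the 3W arrays.

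At 5W, 6 of 9 members were called higher in EN, with 15.4% of all tested probes. They were Ifit1, which rose by 2.96 ± 0.85 (log2 change ± SE, 7.77-fold, adjusted p = 0.00674), Ifit3 by 2.82 ± 0.53 (7.07-fold, adjusted p = 0.000177), Usp18 by 2.71 ± 0.75 (6.52-fold, adjusted p = 0.00531), Oasl2 by 2.29 ± 0.66 (4.90-fold, adjusted p = 0.00700), Isg15 by 1.99 ± 0.78 (3.98-fold, adjusted p = 0.0385) and Irf9 by 1.66 ± 0.39 (3.17-fold, adjusted p = 0.00140). In AN, 5 of 9 were called higher, with 15.2% of all tested probes. Ifit3 rose 7.93-fold, Usp18 5.44-fold, Ifit1 4.51-fold, Oasl2 3.50-fold and Irf9 2.95-fold, with adjusted p between 0.000107 and 0.0404, and Isg15 was at 1.49 ± 0.78 on the log2 scale with an adjusted p of 0.121.

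The median change of the 9 members at 5W was 1.99 in EN and 1.56 in AN on the log2 scale, against 0.04 and 0.03 over all tested probes. All 3 arrays of 5W lay above those of P0 for 6 of 9 members in EN (30.2% of all tested probes) and for 3 of 9 in AN (27.4%). The second probe of Irf7 was called in EN at 5W, at 1.88 (95% interval 0.31 to 3.45, 3.68-fold, adjusted p = 0.041), and was 2.29-fold higher in AN without a call (adjusted p = 0.194). The shown probes that were not called had wide intervals, with Irf7 at 1.29 (-0.40 to 2.98) in EN and 1.46 (-0.23 to 3.15) in AN, Rsad2 at 1.01 (-0.92 to 2.94) and 0.28 (-1.65 to 2.22), and Ifi44 at 0.96 (-0.54 to 2.46) and 0.25 (-1.25 to 1.75). These comparisons share the P0 arrays with those at 3W.

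Within slide 2, which holds 1 array of 5W and 2 of P0 for each root, 9 of 9 members were higher at 5W in EN, by 0.20 to 2.12, and 6 of 9 in AN, where the differences ranged from -0.80 to 2.04. That 5W array was the lowest of its group. For Ifit3 the difference within the slide was 2.12 in EN and 2.04 in AN, and for Irf9 it was 1.14 and 0.84. With the slide as a fixed block, 5 of 9 members were called at 5W in EN and 2 of 9 in AN, the latter being Ifit3 and Irf9. The share of all tested probes called under that block is not given here, so these counts do not show a loss particular to the members. At 1W against P0, 4 of 9 members were higher within slide 1 in EN and 4 of 9 in AN, and 9 of 9 within slide 2 in both roots.

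In EN, between 5 and 6 members were called at 5W whichever array or replicate number was left out. Isg15 was the only one to lose its call, and it kept the call only without replicate 2 of P0 or without replicate 2 of 5W. In AN the count ranged from 2 to 7. It was 7 without 5W replicate 2, when Isg15 and Irf7 joined, 2 without 5W replicate 3, and 3 without 5W replicate 1 or without P0 replicate 1 or 3. Ifit3 and Irf9 were called in each of these fits.

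**Figure D4:**
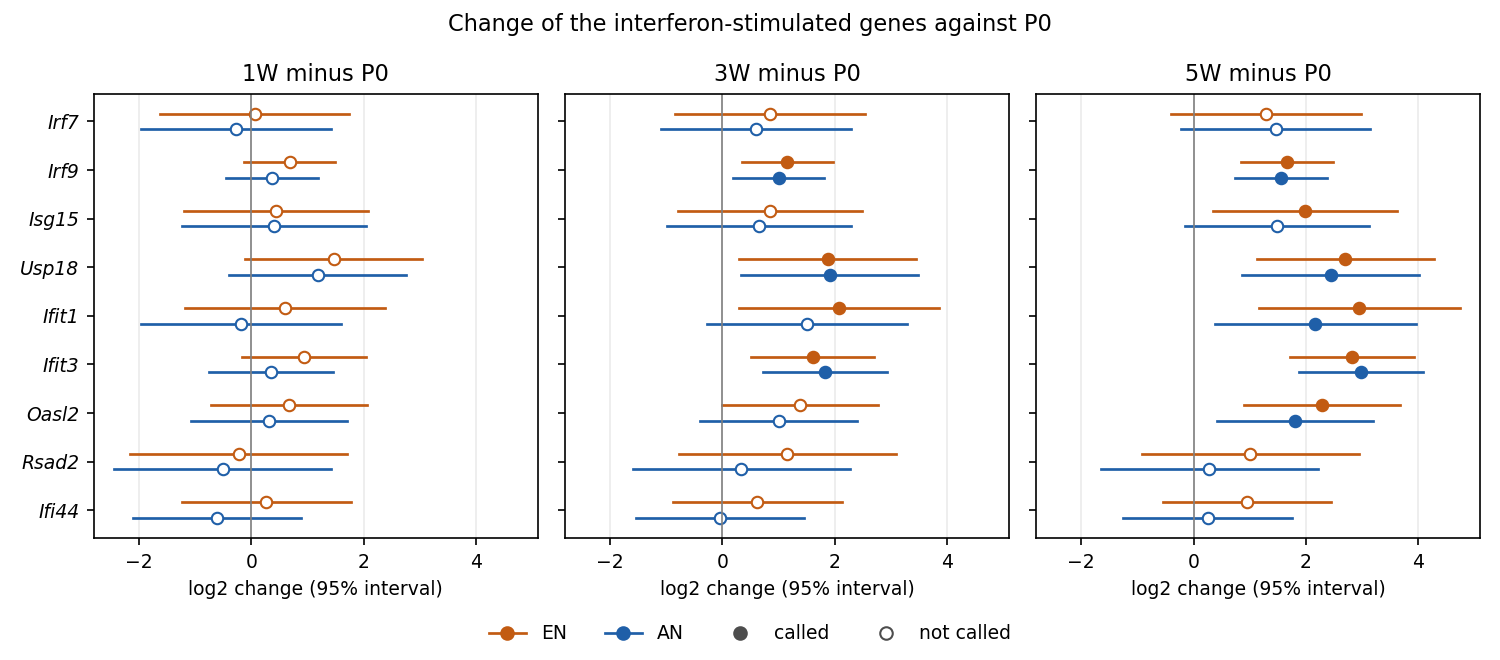
Log2 change of each member against P0 (horizontal axis, with the 95% interval of limma) at 1W, 3W and 5W in EN (orange) and AN (blue), with filled points for called changes. No change is called at 1W, 4 in EN and 3 in AN are called at 3W, and 6 in EN and 5 in AN at 5W.

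Between neighbouring stages, single steps were rarely called. From 1W to 3W, Ifit3 rose 2.77-fold in AN (adjusted p = 0.0416), which made 1 of 9 members against 6.19% of all tested probes called higher, and 0 of 9 were called in EN (5.65%). These counts depended on single arrays. Without replicate 3 of 1W, 3 members were called in AN (Ifit1, Ifit3 and Irf9) and 1 in EN (Ifit1). When any other single array of 1W or 3W was left out, 0 were called in either root, so that the AN call of Ifit3 was lost. From 3W to 5W, 0 of 9 were called in EN (0.7% of all tested probes) and 0 of 9 in AN (1.05%).

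Ifit3 had an unadjusted p below 0.05 for the step from 3W to 5W in both roots, with 1.22 ± 0.53 in EN and 1.16 ± 0.53 in AN on the log2 scale, and adjusted p of 0.246 and 0.234. Within slide 4, which holds the 3W arrays and 1 array of 5W, 8 of 9 members were higher at 5W in EN and 9 of 9 in AN, by a median of 1.43 and 1.53. The exception was Irf7 in EN, at -0.27. That 5W array was the highest of its group for 7 of 9 members in EN and 6 of 9 in AN, and over all arrays the median step was 0.83 and 0.66.

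The rest of the interferon pathway is given by lists of genes of known role, of which 115 genes had a tested probe. At 5W against P0, 58 of them were called higher in EN (50.4%, against 15.4% of all tested probes) and 46 in AN (15.2% of all), and the median change was 1.11 and 0.80 on the log2 scale. At 1W, 16.5% were called higher in EN, against 6.25% of all tested probes, and 6.09% in AN, against 4.96%. Calls in either direction at 1W numbered 19 in EN and 8 in AN. The EN count was 8 without P0 replicate 3 and 12 without 1W replicate 3, or without P0 replicate 1 of both roots, and the AN count was 5 without P0 replicate 3 or without P0 replicate 1 of both roots. Between AN and EN, 0 of 115 were called at any stage, and 0 of 115 were called for the change of that difference since P0.

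Of 20 genes of type I and type III interferons, 10 were tested, and Ifnb1 and the type II ligand Ifng were well above background on 1 of 24 arrays each and were not tested. In AN at 5W, Ifnk rose by 1.71 ± 0.41 (log2 change ± SE, adjusted p = 0.00170), from a P0 group in which 2 of 3 arrays were above background. Ifna13 was called in both roots at 5W, with 1 of 3 arrays above background in EN 5W and none in EN P0, which leaves a bound of at least 1.05-fold there. Ifna2 was called lower at 3W in both roots, where none of the 3W arrays was above background, by at least 1.49-fold in EN and 1.99-fold in AN.

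Of 6 receptor subunits, Il10rb, shared by the type III and interleukin-10 receptors, rose by 1.46 ± 0.14 in EN and 1.17 ± 0.14 in AN at 5W (log2 change ± SE). The type III subunit Ifnlr1 was called as well, by 1.79 and 1.00, from P0 groups with 1 and 2 of 3 arrays above background. The type I receptor subunits were not called against P0 at any stage, with Ifnar1 at 11.94 and 11.63 and Ifnar2 at 11.58 and 11.97 on average in EN at P0 and 5W (log2 level).

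Of 10 genes of Jak-Stat signalling and its inhibitors, Socs3, a feedback inhibitor (1.26 ± 0.34), and Stat2 (1.07 ± 0.18) were among those that rose in EN at 5W, and Stat2 rose in AN (1.09 ± 0.18). None was called at 3W. Of 17 genes of nucleic acid sensing, 11 rose in EN and 5 in AN at 5W. Mavs, the adaptor of cytosolic RNA sensors, rose by 1.56 and 1.65, the DNA sensor Zbp1 rose by 1.73 in EN, and the adaptor Ticam1 by 1.04 in AN. Tlr3, the endosomal receptor of double-stranded RNA, rose at least 2.94-fold in EN, where no P0 array was above background. Tlr9, the endosomal DNA receptor, fell at 3W, by 1.09 in EN and 1.39 in AN on the log2 scale.

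Of 9 regulatory factors other than the members, 5 rose in EN and 4 in AN at 5W. Irf8, which macrophages and dendritic cells require, rose by 2.39 ± 0.20 and 1.80 ± 0.20, and Irf5 rose by 2.14 ± 0.20 and 1.57 ± 0.20. Irf4 rose at least 2.27-fold in EN and at least 1.56-fold in AN, since no P0 array was above background.

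Of 46 tested interferon-stimulated effectors outside the 9 members, 25 rose and 0 fell in EN at 5W, and 22 rose in AN. For falls, the share of all tested probes is not given here. Ifit3b rose by 3.73 ± 0.60 in both roots, Phf11d rose by 3.34 ± 0.51 and 3.04 ± 0.51, and Mx1, a dynamin-like antiviral GTPase, rose at least 3.81-fold in EN and 2.52-fold in AN. Among the genes that fell in AN was Ifitm1, by 1.35 on the log2 scale. Of 17 GTPases and antigen processing genes that interferon gamma induces, 11 rose in EN and 10 in AN at 5W. Tgtp2 and Irgm2, which are immunity-related GTPases, rose by 4.69 ± 1.01 and 3.25 ± 0.60 in EN and by 4.65 ± 1.01 and 3.37 ± 0.60 in AN. Ciita, the master regulator of class II antigen presentation, rose at least 10.6-fold in EN, where no P0 array was above background, and by 3.23 ± 0.51 in AN, where 1 was.

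**Figure D5:**
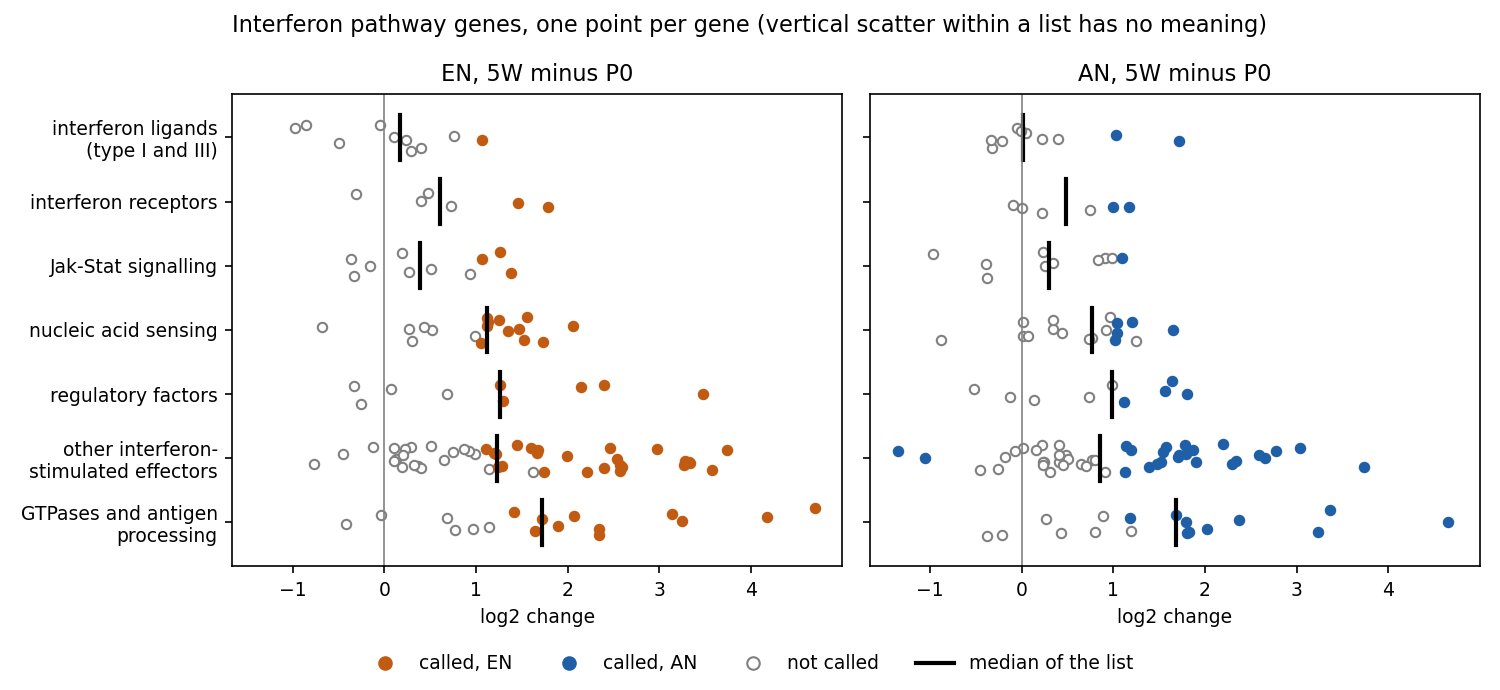
Log2 change from P0 to 5W (horizontal axis) of the tested genes of 7 interferon pathway lists (rows, 1 point per gene) in EN and AN, with filled points for called changes and a bar at the median of each list. The medians of the ligand list lie at 0.17 and 0.02 and those of the GTPase and antigen processing list at 1.72 and 1.68.

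The genes whose deviations from group means were most like the mean of the members were sought among 17719 genes, over the 24 arrays. The 10 most like were Rtp4 (r = 0.99), Gbp3 (0.98), Oas1a (0.98), Ifi47 (0.97), Batf2 (0.97), Oasl1 (0.96), Ifi204 (0.96), Ifih1 (0.96), Tgtp2 (0.96) and Irgm2 (0.95). The median r over all genes was 0.04, 36 genes had r above 0.9 and 9 had r below -0.8. The members entered this measure through the same arrays, so r is a description. Rtp4, a chaperone of membrane receptors, ranked first also with values normalized anew from the scanner signals, which gave the same 10 genes. Both sets of values are quantile normalized from the same scans, so this likeness is no independent support.

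Marker genes of other cell types moved with the members in part. All 12 macrophage markers, all 10 Schwann cell markers and all 8 neuron markers were well above background on all 24 arrays. The mean of the macrophage markers lay between 10.09 and 10.37 on the EN arrays of P0 and between 12.11 and 12.42 on those of 5W (log2 level). In AN it lay between 10.15 and 10.51 and between 11.43 and 11.93. At 5W, 11 of 12 macrophage markers were called higher than at P0 in EN and 8 of 12 in AN, where 15.4% and 15.2% of all tested probes were. Of 8 neuron markers, 6 were called lower at 5W in EN and 3 in AN, with a median change of -2.69 and -1.88 on the log2 scale. No share of all tested probes called lower is given beside these counts. Of 10 Schwann cell markers, 2 were called higher in EN and 7 in AN, and of 8 spinal cord glia markers 2 were called higher and 1 lower in EN and 5 higher in AN. The Schwann cell count in EN was near the share of all tested probes called higher there. Between arrays of a group, the macrophage mean and the mean of the members had r = 0.58 over 24 deviations, and on EN 1W the macrophage mean was 11.28, 11.31 and 11.50 for replicates 1, 2 and 3.

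The mean of 7 red cell markers was 15.59 on replicate 3 of EN 1W against 13.77 and 13.70 on the other arrays, and 15.43 against 13.34 and 13.58 in AN. It was 15.44 on AN P0 replicate 1 and 15.14 on EN P0 replicate 1. There the members had a median deviation of -0.44 and -0.32 from the mean of the other arrays of the group. Rsad2 stood 1.89 and 1.60 above that mean, and 2 of 9 members lay above the group mean on each of the 2 arrays. The mean of the neutrophil markers was 11.39 on replicate 3 of EN 1W against 8.67 and 10.19, and 10.82 against 10.39 and 10.06 in AN. Over the deviations of the 24 arrays, the members correlated with the red cell mean at r = 0.70, with the mean of lymphocyte and plasmacytoid dendritic cell markers, a list that holds the interferon-stimulated gene Bst2, at 0.65, with the neutrophil mean at 0.61 and with the Schwann cell mean at -0.65. The fibroblast, endothelial, neuron and spinal cord glia means had r of 0.35, 0.30, 0.03 and -0.31. Same-numbered AN and EN arrays deviated together, so the 24 deviations are not 24 independent values. The part of any of these cell types in the members' values was not tested.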

How the data were processed

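RNA of 24 samples, 3 in each of 8 groups, was hybridized to Agilent mouse arrays with 1 dye. The authors deposited the Feature Extraction 10.7.1.1 output of every array as intensity values, already background-subtracted and detrended within the array, and a table of 56743 probes as log2 values, which they quantile normalized in GeneSpring. The deposited log2 table was the main source: its columns correlated with r of at least 0.995 with the scanner intensity of their own array and at most 0.990 with that of any other. Probe positions are those of the files (mm9). Groups and replicate numbers came from the sample titles, and no array was left out.

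The 36409 probes well above background on 3 arrays of at least 1 group were fitted in limma 3.58.1 (R 4.3.3) with 8 group means, moderated variances and no covariate (16 residual degrees of freedom). Calls need an adjusted p (Benjamini-Hochberg over all tested probes) below 0.05 and a fold change above 2. Both thresholds are those of the study's methods, where an adjustment of p is not mentioned. The fit was tested on simulated data. Deviations of same-numbered AN and EN arrays correlated with r from 0.107 to 0.646 over all tested probes in the 12 pairs, so the numbers were taken as pairs, and the pairing comes from this check and not from the labels. The p values measure the spread between these samples, since the labels do not tie them to animals.

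Named genes are the 9 members, up to 3 of the largest rises and falls called in each pathway list, the 10 genes most like the members and the brightest markers. The members and lists were chosen with earlier results of these data known. Some genes of the lists are counted but not reported here by name. A bound ("at least") sets the brighter group against the higher of each dim array's detection limit and its own value. Alternatives were other scalings (75th percentile, normexp with an offset of 50), filters, slide and pair blocks, array weights, all probes of a gene and leaving out arrays. Python 3.11.15 with pandas 2.3.3 and matplotlib 3.10.9 made the tables and figures.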

Additional observations from a re-analysis of the deposited data

Results flagged for a closer look

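A few differences between the roots had opposite signs in all 3 pairs of each of 2 stages. For Ifit3, AN minus EN was -0.51 at 1W, with EN higher in 3 of 3 pairs, and 0.29 at 3W, with AN higher in 3 of 3 (log2), and the difference between these stages was not tested. For Isg15, AN minus EN was 0.15 at P0, with AN higher in 3 of 3 pairs, against -0.06 at 3W and -0.36 at 5W, with EN higher in 3 of 3 at each. In limma without pairs the change of the Isg15 difference since P0 was not called at 3W or 5W (-0.20 with a 95% interval of -2.52 to 2.11, and -0.50 with -2.82 to 1.82). Both intervals include the spread between replicate numbers that the roots shared.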

How the results depend on the processing

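No member was called between AN and EN under any alternative, and no called change of a member changed direction. Differences often changed sign when 1 array was left out, in 30 of 36 for AN against EN and in 17 of 54 against P0 over all members and stages. The 54 include the called changes, none of which changed sign. At 5W, AN minus EN went from -0.36 to 0.28 for Isg15 without AN replicate 2 and from 0.23 to -0.03 for Ifit3 without AN replicate 3, and at 1W against P0 in EN, Isg15 went from 0.43 to -0.56 without EN 1W replicate 3. Leaving out 1 array of a pair lets the spread shared by both roots enter AN minus EN. Within the pairs of 5W, AN minus EN ran from -0.53 to -0.03 for Isg15 and from -0.14 to 0.64 for Ifit3. The sign changes for AN against EN thus do not measure how stable the differences within pairs were. With the replicate block (the pair of same-numbered arrays) 0 members were called between AN and EN at each stage. No member's difference reached 2-fold with or without it, and no count of called members moved by over 1.5 times. Among the other pathway genes, the block gave 1 call in each root for the step from 3W to 5W, where there was none, and the random pair block gave 5 in AN from 1W to 3W, where there were 2. At 3W against P0, 2 members were called in EN with the 75th percentile, with normexp or with no filter on dim probes, and 1 was called in AN with normexp or with no filter. With the slide as a fixed block, the counts in EN were 1 at 1W and 0 at 3W, and in AN 0 at 3W and 2 at 5W. With the slide as a random block both counts at 3W were 0. For the step from 1W to 3W, array weights gave 5 calls in EN and 3 in AN, and the AN count was 0 with no filter, with either slide block or with the compared groups alone. For the step from 3W to 5W, Ifit3 was the 1 call in each root with the slide as a fixed block or with an unadjusted p. Leaving out 1 array, or 1 replicate number in both roots (added after the data were seen, as were the pair blocks), gave 0 to 5 calls in EN and 1 to 3 in AN at 3W, 2 to 7 in AN at 5W, 0 to 1 in AN at 1W, and 0 to 3 in EN and 0 to 4 in AN for the step from 1W to 3W. The longer promoter core was found in 2 members instead of 4. The causes of these differences were not tested, and the shares of all tested probes called under the alternatives are not given beside the counts.

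Precision is limited by 3 arrays per group and by the large spread of the members within groups. Signal over background limits Ifit1 at P0 and the interferon ligands. No probe was saturated. Stage and slide overlap in part only, and 3W and P0 share no slide, so that their difference rests on a link through other stages once the slide is in the fit.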
